A study of Mus musculus with 16 samples.

Results

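AP-1 is the name of a family of dimeric transcription factors, and the 10 genes described here encode members of it and close relatives. They were taken by symbol from the gene count table and comprised the Fos genes Fos, Fosb, Fosl1 and Fosl2, the Jun genes Jun, Junb and Jund, the related factor Atf3, and the small Maf genes Maff and Mafk. All 10 were found among 38720 lines, and all 10 passed the filter on low counts that left 16842 genes for testing. RNA sequencing libraries were made from adipose progenitors, the precursor cells of fat, of mice 4 weeks old. Wild type mice (WT) were of strain C57BL/6J. Knockout mice (KO) carried the genotype B6;129S2-Nr4a1tm1Jmi/J, an allele that targets the orphan nuclear receptor gene Nr4a1, and their strain was labelled C57BL/6J as well. Each genotype was sampled in subcutaneous (SAT) and visceral (VAT) fat, with n = 4 libraries labelled as biological replicates in each of the 4 groups. No treatment is named for any group, and the knockout allele cannot be told apart from the other DNA that came with its strain. Separate animals are not stated for the replicates, and the p-values cover the spread among these samples only.

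Fos and Jun proteins pair through a leucine zipper and bind a short palindromic DNA element, the AP-1 site. Fos proteins need a Jun partner, whereas Jun proteins can also pair among themselves. Many of these genes are immediate early genes, transcribed within minutes of growth factors, stress or tissue dissociation without new protein synthesis, and Nr4a1 is itself one. In fat precursors the factors are known to respond to the signals that start proliferation and differentiation. Atf3 is a stress-induced relative that binds the cyclic AMP response element (CRE) as well as AP-1 sites. Maff and Mafk lack an activation domain and act through their partners.

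The stretches just before the transcription starts of 5 of these genes are shown because they carry the CRE-type letters that most of the family shared. Each run gives the 120 bases before a RefSeq start on assembly GRCm38.p6, read 5′ to 3′ on the strand of the gene, with motif matches in capitals.
Fos, chr12:85473770-85473889, plus strand: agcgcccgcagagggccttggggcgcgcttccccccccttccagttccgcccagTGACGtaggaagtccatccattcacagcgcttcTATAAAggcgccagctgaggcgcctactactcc
Jun, chr4:95052223-95052342, minus strand: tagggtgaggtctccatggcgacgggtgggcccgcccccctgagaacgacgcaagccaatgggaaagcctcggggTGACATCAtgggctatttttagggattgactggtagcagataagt
Junb, chr8:84978749-84978868, minus strand: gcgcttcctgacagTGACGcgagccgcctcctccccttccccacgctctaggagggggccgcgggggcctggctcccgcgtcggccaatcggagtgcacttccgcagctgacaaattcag
Atf3, chr1:191183334-191183453, minus strand: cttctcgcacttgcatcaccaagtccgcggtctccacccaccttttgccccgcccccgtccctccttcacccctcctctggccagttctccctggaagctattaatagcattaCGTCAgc
Maff, chr15:79347400-79347519, plus strand: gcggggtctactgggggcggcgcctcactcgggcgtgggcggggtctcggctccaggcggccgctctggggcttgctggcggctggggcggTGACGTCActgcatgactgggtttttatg

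In Fos the capitals mark the CRE half-site TGACG and the TATA box TATAAA. In Maff they mark the full CRE, TGACGTCA, which itself holds the half-site on both strands. Jun carried TGACATCA, a form of the CRE with 1 base changed. Atf3 carried the half-site on the other strand, within TTACGTCA, which also differs from the CRE by 1 base.

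RefSeq promoter windows of 250 bases before a start were matched for 9 members, with 3 starts for Maff and thus 11 windows. Fosl1 had no window. The Jund window (chromosome 8, 70697489 to 70697738) ended upstream of the GENCODE start of Jund at 70698949. The bases directly before that GENCODE start were therefore not searched. Matches were sought on both strands. The half-site was present in 6 of the 9 genes (Fos, Fosb, Junb, Atf3, Maff and Mafk) and in 7 of 11 windows, against 17.8% of the 32851 windows of all genes. The full CRE stood in 1 Maff window, against 1.55% of all windows, and TGACATCA in Jun and another Maff window, against 2.93%. In both of these the match began 45 bases before the start. TATAAA was found before Fos alone among the 9, against 12.4% of all windows. None of the 11 windows held the AP-1 site TGANTCA (6.75% of all windows), the CArG box that serum response factor binds (1.47%) or AAAGGTCA, the element that Nr4a1 is known to bind (1.34%). The half-site and TGACATCA were searched after the windows had been read. Other forms of the CRE with 1 base changed, such as the one before Atf3, were not searched. Bases more than 250 before a start were not searched, so a missing match holds for these windows only. The matches describe letters in short windows and say nothing about binding in these cells.

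**Figure D1:**
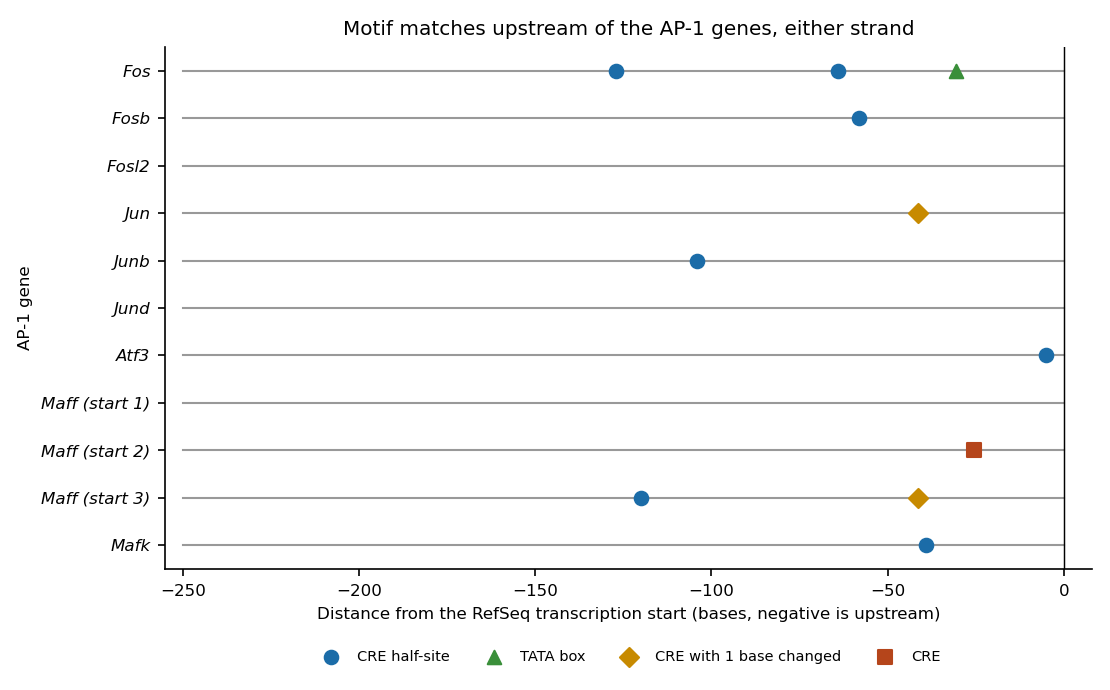
Motif matches in the 11 promoter windows of 9 AP-1 genes, drawn by distance from the RefSeq start in bases (x axis), with a line for each window. Blue circles mark the CRE half-site outside a full CRE, the red square the full CRE, and the green triangle the TATA box. Gold diamonds mark TGACATCA, labelled as the CRE with 1 base changed, and other such forms were not searched. The gold diamonds of Jun and the third Maff start lie at the same distance, and the windows of Fosl2, Jund and the first Maff start hold no match.

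Total counts per library ranged from 34655519 to 55551845. Levels are CPM, counts scaled to a common library size by TMM, a factor that sets libraries level over most genes. In SAT, Nr4a1 stood at 997 to 1212 CPM with the wild type gene and 195 to 209 in the knockout. In VAT it stood at 1432 to 1649 CPM and 297 to 327 CPM, so each knockout library was below each wild type library of its depot. Of the 12 progenitor genes listed, all were detected in every library, among them Pdgfra at 470 to 961 CPM and Cd34 at 640 to 1829 CPM. Within their groups, WT SAT replicate 3 and KO VAT replicate 4 were the least like the others, with mean correlations of 0.976 and 0.981, and both had fewer counts than the rest of their group. The libraries are bulk samples, so fewer cells that express a gene and less RNA per cell cannot be told apart.

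The family was abundant in all 16 libraries. Its 10 genes took 1.47% ± 0.07 (SD, n = 4) of the counts of WT SAT and 1.31% ± 0.11 of those of KO SAT. The shares in VAT were 1.83% ± 0.06 for WT and 1.60% ± 0.04 for KO. These are shares of total counts without TMM, and the higher shares in VAT depend on that. In TMM-scaled CPM the 10 genes summed to a median of 16632 in WT SAT and 16860 in WT VAT. In KO the medians were 14762 in SAT and 14010 in VAT. Fos alone had a median rank of 9 among the 38720 lines by count, and ranked between 8 and 16 across libraries. To compare genes with each other, CPM were divided by the kilobases of exon annotated for each gene (GENCODE vM21). On that per-kilobase level Fos averaged 2093 over the 16 libraries, followed by Jun at 892, Junb at 766, Atf3 at 654, Jund at 523 and Fosb at 463. Below these stood Fosl2 at 59.2, Mafk at 31.8, Maff at 20.3 and Fosl1 at 2.01. The order was firm at the ends and loose in the middle. Fos exceeded Jun in 16 of 16 libraries and Jun exceeded Junb in 15, but Atf3 exceeded Jund in only 11 and Jund exceeded Fosb in only 9. Dividing by the longest transcript placed Junb (974) above Jun (892) and Fosb (764) above Atf3 (710). The level of Jund, and any share that includes it, is uncertain because of exon bases shared with another gene, as described further on.

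Read per kilobase, the Fos genes supplied 44.7% ± 1.93 (SD, n = 4) of the family's level in WT SAT and 48.6% ± 0.58 in KO SAT, and the Jun genes 43.6% ± 1.53 and 39.8% ± 0.43. In VAT the Fos genes supplied 47.8% ± 0.51 with WT and 49.6% ± 1.41 with KO, and the Jun genes 37.8% ± 0.57 and 36.8% ± 1.63. The WT SAT libraries thus held the lowest Fos share and the highest Jun share of the 4 groups. In WT SAT the Fos share ran from 42.5% to 47.2%, below the range of 48.0% to 49.3% in KO SAT. The small Maf genes supplied no more than 1.39% in any library.

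**Figure D2:**
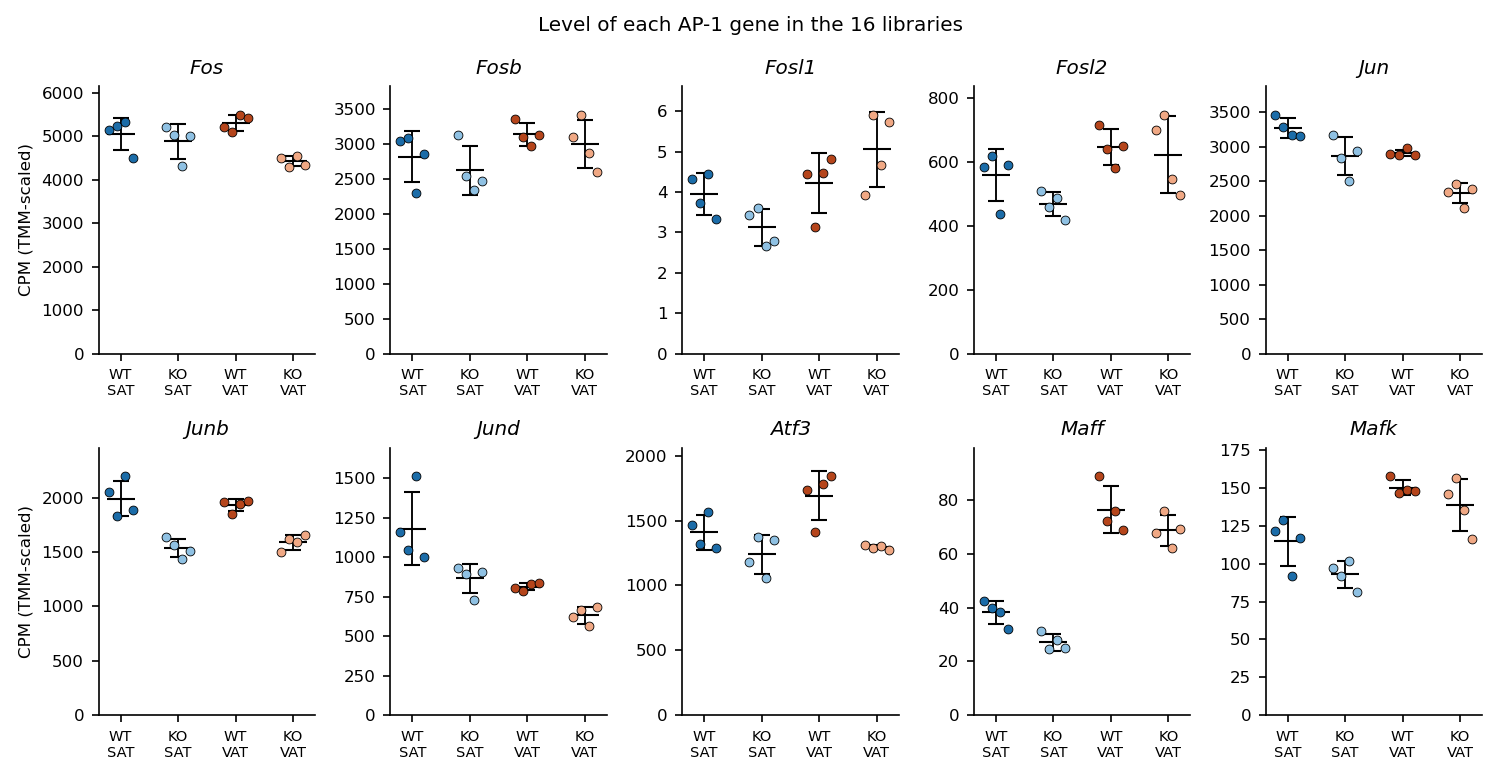
Level of each AP-1 gene in TMM-scaled CPM (y axis, from 0, own scale per panel) in the 4 groups, with a point per library and bars for mean ± SD (n = 4). Maff shows the largest separation by depot, with every VAT library above 62 and every SAT library below 43, and Junb shows both knockout groups below both wild type groups.

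The first question was how the family differed between KO and WT in subcutaneous progenitors. Junb, Jund and Maff were lower in KO SAT, and none of the 10 was higher. A gene was called at an adjusted p under 0.05 in the edgeR quasi-likelihood test over all tested genes, and 2.43% of tested genes were called lower and 3.46% higher in this comparison. All 10 log2 fold changes were below 0, from -0.49 to -0.05, with a median of -0.28 against -0.01 over all tested genes. The same 3 genes, and no other member, had every KO SAT library below every WT SAT library, which held for 6.75% of tested genes.

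Junb (chromosome 8, 84974484 to 84978718, minus strand, 1 exon, build mm10) encodes a Jun protein that often restrains growth. It stood at 2049, 1835, 2197 and 1886 CPM in WT SAT replicates 1 to 4 and at 1634, 1567, 1437 and 1509 in KO SAT. The groups did not overlap, and the mean fell by 22.9% (log2 fold change -0.37 ± 0.07 SE, edgeR adjusted p = 0.00541). Jund (chromosome 8, 70698949 to 70700616, plus strand, 1 exon) encodes the Jun protein that is usually present without stimulation. Its levels were 1159, 1047, 1512 and 998.5 CPM in WT SAT and 933, 895, 729 and 907 in KO SAT. WT SAT replicate 3 was the highest, and the groups did not overlap. The log2 fold change was -0.45 ± 0.12, with an edgeR adjusted p of 0.0307. The Jund call did not hold when WT SAT replicate 1 (edgeR adjusted p = 0.0589) or 3 (0.0593) was left out. Nor did it hold when KO SAT replicate 2 (0.0669), 3 (0.0985) or 4 (0.0684) was.

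Maff (chromosome 15, 79346621 to 79359076, plus strand, 3 exons in the longest transcript) encodes a small Maf protein. It measured 42.4, 39.9, 38.4 and 32.2 CPM in WT SAT and 31.4, 24.5, 27.8 and 25.0 in KO SAT. The lowest WT library was just above the highest KO library, and the log2 fold change was -0.49 ± 0.10 (edgeR adjusted p = 0.00963). Maff lies 21.9 megabases from Nr4a1 on the same chromosome, and the part of the strain of origin in its level was not tested. The calls of Junb and Maff held without each of the 8 libraries in turn. Fitted to the SAT libraries alone, the test called Maff and left Junb at an edgeR adjusted p of 0.0571 and Jund at 0.121. Over all genes that fit called 509 of 15474, against 992 of 16842 in the full fit.

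The remaining members in SAT had smaller or more variable differences. Fos, the most abundant, measured 5155, 5247, 5334 and 4513 CPM in WT SAT and 5217, 5029, 4310 and 5004 in KO SAT, and the groups overlapped. Its log2 fold change was -0.05 ± 0.08. Fosb (chromosome 7, 19302696 to 19310051, minus strand, 4 exons in the longest transcript), whose protein exists in a long and a truncated form, measured 3035, 3080, 2297 and 2845 CPM in WT SAT and 3129, 2530, 2341 and 2473 in KO SAT. Its groups overlapped as well, with a log2 fold change of -0.10 ± 0.11. Jun was at -0.19 ± 0.08 (edgeR adjusted p = 0.158) and Atf3 at -0.18 ± 0.10 (edgeR adjusted p = 0.289). Fosl2, which encodes Fra-2, was at -0.25 ± 0.13, and Mafk at -0.30 ± 0.10. Both were low in WT SAT replicate 3, with Fosl2 at 437 CPM there against 583 to 618 in the other WT SAT libraries and Mafk at 91.7 against 117 to 129. Without WT SAT replicate 3 and KO VAT replicate 4, a choice made after seeing the data, 5 members were called lower. Those in addition were Mafk (edgeR adjusted p = 0.00355) and Fosl2 (0.0395). That fit called 1263 of 16991 genes in either direction, against 992 of 16842 in the full fit. Fosl1, which encodes Fra-1, was barely expressed, at 3.33 to 4.44 CPM in WT SAT and 2.67 to 3.60 in KO SAT.

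In visceral progenitors the same question gave another set of called genes. Jun, Junb and Atf3 were lower in KO VAT, and none of the 10 was higher. Over all tested genes, 1.26% were called lower and 2.84% higher. The log2 fold changes of 9 members were below 0, Fosl1 was above, and the median was -0.21 against 0.00 over all tested genes. Groups that did not overlap, with KO lower, were found for Fos, Jun, Junb, Jund and Atf3, against 6.74% of tested genes.

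Jun (chromosome 4, 95049034 to 95052222, minus strand, 1 exon) encodes the main partner of Fos. It stood at 2894, 2877, 2983 and 2887 CPM in WT VAT and at 2341, 2461, 2120 and 2391 in KO VAT. The WT libraries lay close together and well above all KO libraries, with a log2 fold change of -0.32 ± 0.08 (edgeR adjusted p = 0.0276). Atf3 (chromosome 1, 191170296 to 191218039, minus strand, 4 exons in the longest transcript) is the stress-induced member. It measured 1736, 1414, 1779 and 1843 CPM in WT VAT and 1312, 1290, 1306 and 1276 in KO VAT. WT VAT replicate 2 was the lowest of its group and still above each KO library, and the mean fell by 23.4% (log2 fold change -0.39 ± 0.10, edgeR adjusted p = 0.0386). Junb measured 1957, 1849, 1943 and 1968 CPM in WT VAT against 1498, 1621, 1587 and 1658 in KO VAT. The groups were apart, with a log2 fold change of -0.28 ± 0.07 and an edgeR adjusted p of 0.0410.

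Fos (chromosome 12, 85473890 to 85477273, plus strand, 4 exons in the longest transcript) and Jund were also apart between the groups in VAT but did not pass the edgeR test. Fos measured 5211, 5106, 5503 and 5433 CPM in WT VAT and 4499, 4304, 4545 and 4352 in KO VAT, a log2 fold change of -0.26 ± 0.08 (edgeR adjusted p = 0.0697). Jund was at 785 to 833 CPM against 561 to 683 CPM, a log2 fold change of -0.36 ± 0.12 (edgeR adjusted p = 0.0951). The calls in VAT lay close to the threshold. Leaving out WT replicate 1, 3 or 4 of VAT left 0 members called, and so did leaving out KO replicate 1 or 3. Leaving out replicate 2 of either genotype, or KO replicate 4, left 1. Over all tested genes, these fits with a VAT library left out called 412 to 625, against 690 with all libraries. DESeq2 called 5, beside 7.35% of all tested genes, with Fos (DESeq2 adjusted p = 0.00351) and Jund (0.0358) in addition. Without the filter on low counts edgeR called 0, beside 590 of 27609 genes. Its adjusted p for Jun, Junb and Atf3 was 0.0507 to 0.0813. Fosb measured 3347, 3099, 2962 and 3123 CPM in WT VAT and 3101, 3414, 2860 and 2599 in KO VAT, with the highest library of all in KO. The small Maf genes, Fosb and Fosl2 overlapped between the groups, with log2 fold changes from -0.15 to -0.05.

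**Figure D3:**
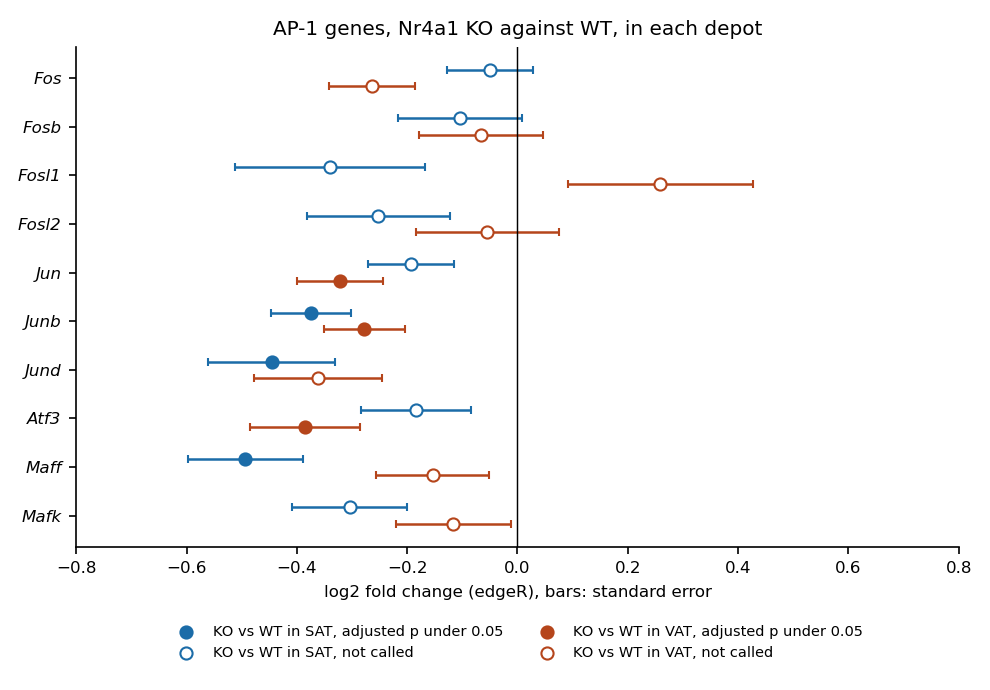
Log2 fold change of each AP-1 gene in KO against WT (x axis; edgeR, bars are SE) in SAT (blue) and VAT (orange), with filled points for adjusted p under 0.05. Of the 20 points 19 lie below 0, and Fosl1 in VAT (0.26) is the exception.

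Whether the knockout effect differed between depots was tested as the interaction. No member passed, at 0.267% of all tested genes called. At an unadjusted p under 0.05, which 16.0% of all tested genes had, there were 2, Fosl1 (difference of log2 fold changes, VAT minus SAT, 0.60 ± 0.24, edgeR adjusted p = 0.248) and Maff (0.34 ± 0.15, edgeR adjusted p = 0.271), and DESeq2, at 3.13% of all genes, and limma-voom called 0 as well. The different gene sets called in SAT and VAT are therefore not shown to differ. For Fos the 2 effects were -0.05 in SAT and -0.26 in VAT, a difference of -0.21 ± 0.11 (edgeR adjusted p = 0.353).

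Between depots within a genotype, members were called in both directions. The median size of the 10 log2 fold changes was 0.19 in WT and 0.35 in KO, beside 0.28 in SAT and 0.26 in VAT for KO against WT. In WT, Maff, Mafk and Atf3 were higher in VAT and Jund was lower, where 19.1% of tested genes were called higher and 17.6% lower. In KO, Maff, Mafk, Fosl1 and Fosl2 were higher in VAT and Jun and Jund lower, against 23.3% and 20.0% of tested genes. In either direction 4 of 10 members were called in WT and 6 of 10 in KO, beside 36.7% and 43.3% of tested genes. VAT and SAT libraries did not overlap for 2 members upward in WT (Maff and Mafk) and 2 downward (Jun and Jund), against 17.9% and 16.2% of tested genes, and for 3 upward in KO (Maff, Mafk and Fosl1) and 2 downward (Jun and Jund), against 23.8% and 21.8%. The depot and genotype comparisons use the same 16 libraries, so their values are not independent.

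Maff had the widest depot difference of the family. It measured 89.0, 72.4, 76.1 and 68.7 CPM in WT VAT and 67.7, 75.9, 62.1 and 69.4 in KO VAT, all above the SAT values given earlier. The log2 fold change of VAT over SAT was 1.0 ± 0.10 in WT (edgeR adjusted p = 7.29e-07) and 1.34 ± 0.10 in KO (edgeR adjusted p = 2.03e-08). Mafk (chromosome 5, 139791513 to 139802653, plus strand, 3 exons in the longest transcript) stood at 122, 129, 91.7 and 117 CPM in WT SAT and 158, 146, 148 and 148 in WT VAT. In KO it stood at 97.5, 91.9, 102 and 81.1 CPM in SAT and 146, 157, 136 and 117 in VAT. The depots were apart in both genotypes, with log2 fold changes of 0.39 ± 0.10 (edgeR adjusted p = 0.00747) and 0.58 ± 0.11 (edgeR adjusted p = 0.000251). Maff and Mafk were therefore both higher in VAT, in both genotypes.

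Jund went the other way. With the SAT values above, it measured 804, 785, 827 and 833 CPM in WT VAT and 622, 662, 561 and 683 in KO VAT. The log2 fold change of VAT over SAT was -0.54 ± 0.12 in WT (edgeR adjusted p = 0.00136) and -0.45 ± 0.12 in KO (edgeR adjusted p = 0.00404). Jun was lower in VAT in KO (log2 fold change -0.30 ± 0.08, edgeR adjusted p = 0.00530), and in WT its value was -0.17 ± 0.08 (edgeR adjusted p = 0.105). The difference between the genotypes is the interaction, which Jun did not pass. Fosl2 (chromosome 5, 32135801 to 32157842, plus strand) measured 508, 459, 486 and 418 CPM in KO SAT and 698, 747, 547 and 495 in KO VAT, with KO VAT replicate 4 inside the SAT range. Its log2 fold change was 0.41 ± 0.13 (edgeR adjusted p = 0.0161), and 3 fits that left out a library lost the call, those without KO SAT replicate 4 and KO VAT replicates 1 and 2 (edgeR adjusted p 0.0553 to 0.0688). Fosl1 (chromosome 19, 5447547 to 5455946, plus strand, 4 exons in the longest transcript) measured 3.43, 3.60, 2.67 and 2.78 CPM in KO SAT and 3.92, 5.92, 4.66 and 5.72 in KO VAT. These groups did not overlap, with a log2 fold change of 0.70 ± 0.17 (edgeR adjusted p = 0.00307), but reads of a neighbouring gene bear on this value as described further on. Atf3 in WT had 0.27 ± 0.10 (edgeR adjusted p = 0.0472). That call was lost in 6 of the 8 fits that left out a library, all but those without WT SAT replicate 3 or WT VAT replicate 2, with edgeR adjusted p of 0.0621 to 0.148.

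The scaling bears on every depot value. When libraries were scaled by total counts instead of TMM, the median log2 fold change of all genes moved to 0.30 in WT and 0.36 in KO. Under that scaling Maff and Mafk kept their direction and call, Jund lost its call (-0.23 in WT and -0.10 in KO), and 4 signs turned, those of Jun (0.13) and Junb (0.26) in WT and of Fos (0.20) and Jun (0.05) in KO. Cell makeup also differed between the depots. Summed mesothelial markers stood at 8.50 to 14.5 CPM in the SAT libraries and 961 to 1884 in the VAT libraries, and all 12 of those markers were called higher in VAT in both genotypes. Of the 12, 6 were at 0 in some SAT library, and 1 of these was at 0 in every SAT library. Summed Schwann cell markers stood at 423 to 864 CPM in SAT and 61.1 to 92.5 in VAT. Pericyte and smooth muscle markers summed to 2309 to 4847 CPM in SAT and 5351 to 6824 CPM in VAT, with no overlap, and 9 of 12 in WT and 10 of 12 in KO were called higher in VAT. The part of these cell types in the depot values was not tested.

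**Figure D4:**
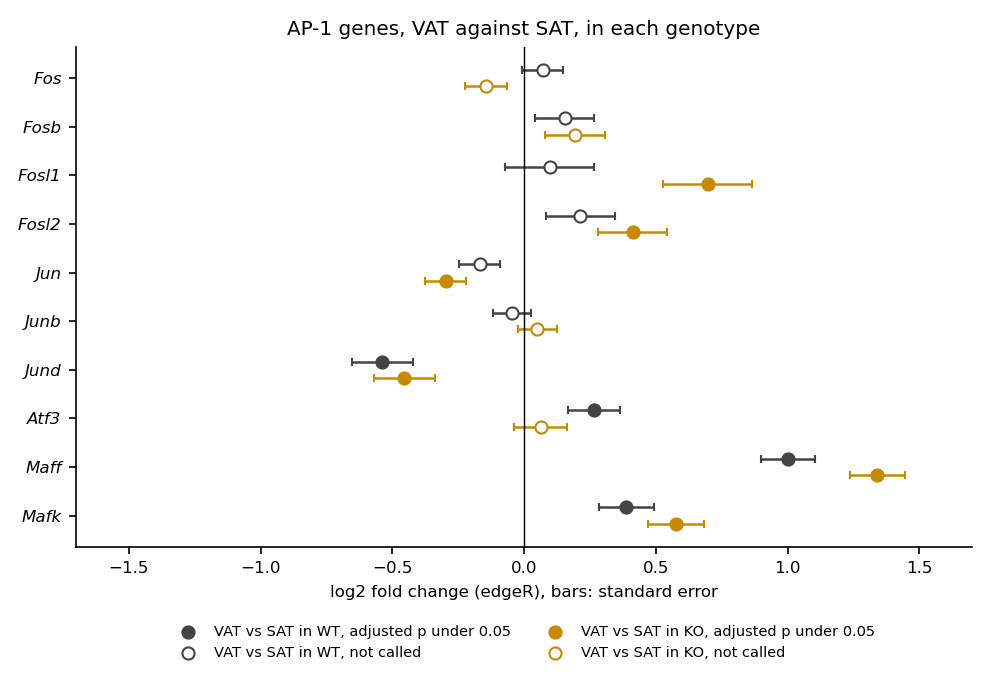
Log2 fold change of each AP-1 gene in VAT against SAT (x axis; edgeR with TMM, bars are SE) in WT (grey) and KO (gold), with filled points for adjusted p under 0.05. Maff is the farthest to the right (1.0 and 1.34) and Jund the farthest to the left (-0.54 and -0.45). Under scaling by total counts Jund lost its call, and Jun in both genotypes, Fos in KO and Junb in WT changed sign.

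Within groups, replicate libraries differed in ways that members shared. Each member's log2 CPM was expressed as its deviation from the group mean, and the 45 pairs of members were correlated over the 16 libraries. Pearson's r ran from -0.63 to 0.92 with a median of 0.35, and 31 of 45 were positive. Fosl2 and Mafk moved most closely together (r = 0.92, permutation p within groups = 0.00013, adjusted over 45 pairs 0.00585; Spearman's rho = 0.88, permutation p = 0.00069, adjusted 0.0147). Without the 2 libraries farthest from the Fosl2 median, which are also the least like their groups, r was 0.83. Fosb and Fosl2 gave r = 0.85 and rho = 0.86 (permutation p = 0.00045 and 0.00053, adjusted 0.00675 and 0.0147), and r = 0.84 without the 2 libraries farthest from the Fosb median.

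Junb and Jund were also correlated, at r = 0.84 and rho = 0.81 (permutation p = 0.0039 and 0.00131, adjusted 0.0439 and 0.0147), and at r = 0.73 without the 2 libraries farthest from the Junb median. Fosl1 and Junb gave r = 0.79 and rho = 0.77 (permutation p = 0.00027 and 0.00117, adjusted 0.00607 and 0.0147), and r = 0.78 without the 2 libraries farthest from the Fosl1 median. The lowest r was that of Jund and Mafk, -0.63, which did not pass (rho = -0.41, permutation p = 0.0717 and 0.178, adjusted 0.249 and 0.365). It weakened to -0.27 without WT SAT replicate 3 and KO VAT replicate 4, and r of Fosl2 with Jund went from -0.45 to 0.01. WT SAT replicate 3 was the lowest of its group for Fosb (2297 CPM), Fosl2 and Mafk and the highest for Junb, Jund, Fos, Atf3 and Fosl1. Without those libraries 36 of 45 correlations were positive. The points share library depth and composition with each other.

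**Figure D5:**
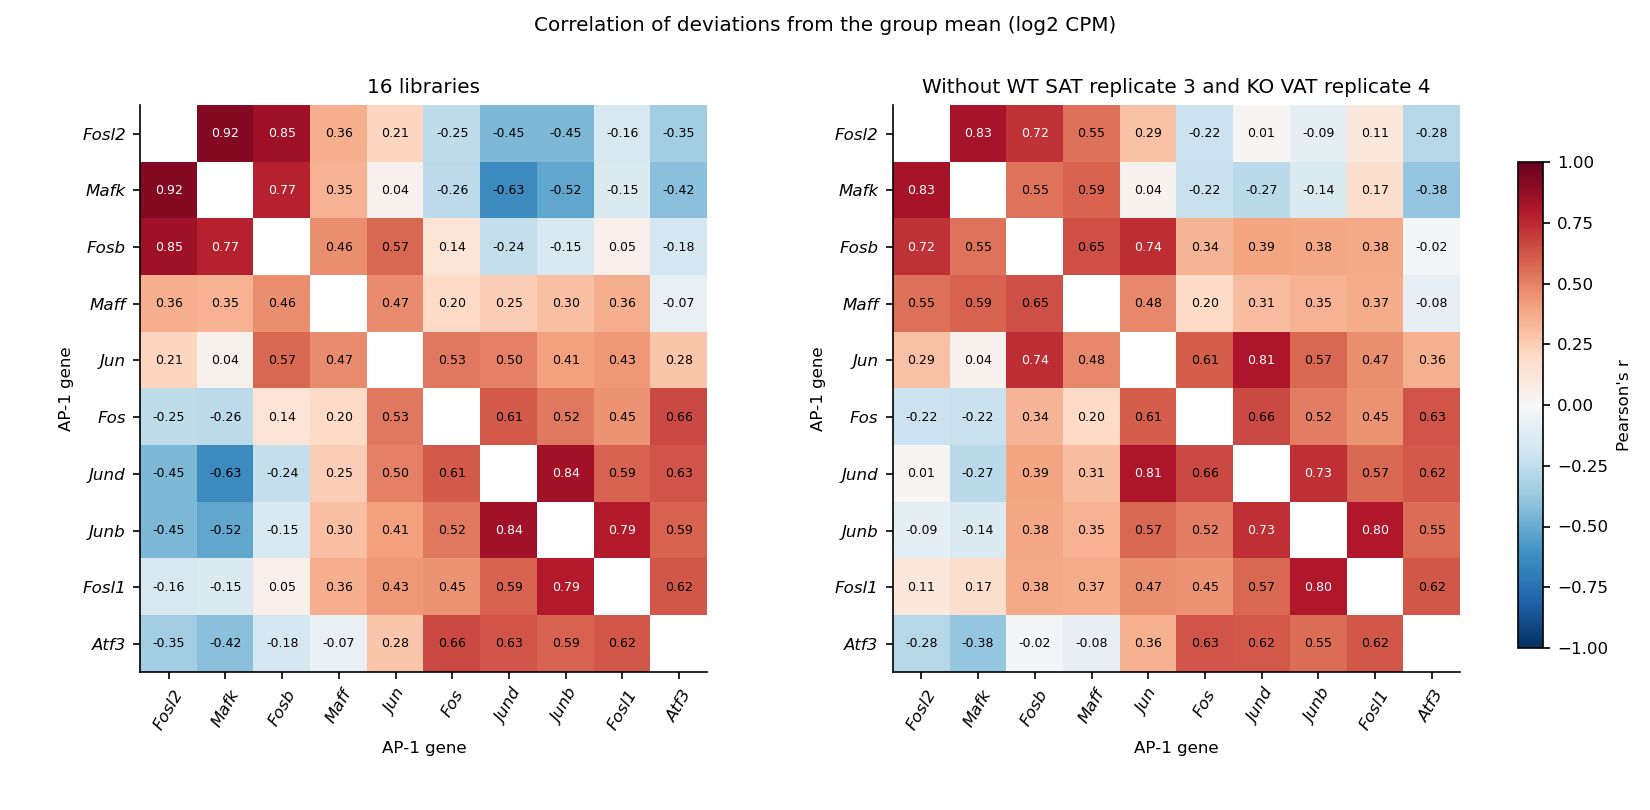
Pearson's r between deviations of log2 CPM from the group mean for the 45 pairs of AP-1 genes, in all 16 libraries (left) and without WT SAT replicate 3 and KO VAT replicate 4 (right), with genes on both axes and colour for r. The block of Fosl2, Mafk and Fosb stays positive in both panels, and its negative values against Jund and Junb on the left are near or above 0 on the right, except for Mafk (-0.27 and -0.14).

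A family profile was made as the mean scaled deviation of the 10 members in each library, and 10075 other genes, each averaging 5 CPM or more, were ranked by likeness to it over the 16 libraries. Among the 5 most alike by Pearson's r were Mknk2 (r = 0.86, rho = 0.89), Asb13 (0.83 and 0.81), Slc25a25 (0.81 and 0.66) and Pim3 (0.81 and 0.64). Ranked by rho, the first 5 again held Mknk2 and Asb13. Mknk2 encodes a kinase that acts below the MAP kinases. At the top of a ranking of 10075 genes over 16 libraries, high values also arise through selection alone. The likeness was not tested, and no link to the family follows from it. KO SAT replicate 1 had the highest profile value (0.99) and KO SAT replicate 3 the lowest (-0.98).

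Other genes of the pathway were read from fixed lists. Of 24 other tested bZIP relatives, 1 fell in KO SAT, Jdp2, a repressor that binds AP-1 sites (log2 fold change -0.26 ± 0.07, edgeR adjusted p = 0.0479), and 0 were called in KO VAT, where 8 had an unadjusted p under 0.05, beside 17.4% of all tested genes, and DESeq2 called 2, beside 7.35%. In SAT the 1 lower gene stands beside 2.43% of all tested genes called lower. Of the 8 fits that left out a library, only that without WT SAT replicate 2 called Jdp2 (edgeR adjusted p = 0.0290), and the others gave 0.0549 to 0.135. Of 29 upstream kinases and serum response factor genes, 2 rose and 1 fell in KO SAT, beside 3.46% and 2.43% of all tested genes. Map2k4, a kinase gene of the JNK branch, rose (0.24 ± 0.07, edgeR adjusted p = 0.0402), as did Rps6ka3, which encodes the kinase RSK2 (0.40 ± 0.11, 0.0496). Mapk3, which encodes ERK1, fell (-0.26 ± 0.07, edgeR adjusted p = 0.0496). With replicate 1 or 3 of WT SAT left out, or with any KO SAT library left out, 0 of the 29 were called. In KO VAT 0 were called, 3 had an unadjusted p under 0.05, and DESeq2 called 0.

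Of 35 other immediate early genes, 1 rose and 2 fell in KO SAT, with a median log2 fold change of -0.16 and the same shares of all genes beside them. The one that rose was Egr2, a zinc finger factor with a role in early adipogenesis, from 36.4 ± 3.84 to 56.9 ± 7.26 CPM (mean ± SD, n = 4; log2 fold change 0.64 ± 0.12, edgeR adjusted p = 0.00414). Trib1, a pseudokinase gene, fell from 95.4 ± 5.28 to 69.4 ± 6.01 CPM (edgeR adjusted p = 0.0260), and the growth arrest gene Gadd45g from 373 ± 116 to 254 ± 32.4 CPM (0.0484). The count was 1 when WT SAT replicate 1 was left out, 5 for WT SAT replicate 2, and 1 for each of KO SAT replicates 3 and 4. Without both WT SAT replicate 3 and KO VAT replicate 4 it was 6. In KO VAT, where 2.84% of all tested genes were called higher and 1.26% lower, 1 rose, Nr4a2, a relative of Nr4a1, from 141 ± 12.8 to 195 ± 19.4 CPM (edgeR adjusted p = 0.0350). The 3 that fell were Dusp1, a MAP kinase phosphatase, from 1391 ± 83.0 to 1024 ± 54.3 CPM (edgeR adjusted p = 0.0312), the cytokine inhibitor gene Socs3 (log2 fold change -0.31 ± 0.08, 0.0488) and the growth factor response gene Myc (-0.38 ± 0.10, 0.0498). Of these immediate early and kinase genes, Rps6ka3, Gadd45g, Socs3 and Myc were named after their values were seen. Leaving out WT replicate 3 or 4 of VAT took that count of 4 to 0, and leaving out WT replicate 1 or 2 took it to 1. For KO replicates 1 and 4 it was 1, and for KO replicate 3 or without both libraries that stand apart it was 2. DESeq2 called 8 in SAT and 9 in VAT, beside 10% and 7.35% of all tested genes.

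Of 28 tested genes that AP-1 is known to regulate, 0 were called in KO SAT by edgeR or limma-voom, beside 5.89% of all tested genes by edgeR. At an unadjusted p under 0.05 there were 10, beside 22.5% of all tested genes, with a median log2 fold change of -0.10, and DESeq2 called 2. The edgeR count was 1 when replicate 1 of either genotype or KO SAT replicate 3 was left out, and 2 when WT SAT replicate 3 was. It was 3 without both WT SAT replicate 3 and KO VAT replicate 4. In KO VAT 2 rose and 0 fell, beside 4.10% of all tested genes called in either direction, so neither count stood far from that of all genes. Vegfa, the vascular growth factor gene, rose from 48.4 ± 3.90 to 64.5 ± 6.98 CPM (edgeR adjusted p = 0.0263), and Ccnd1, which encodes cyclin D1, from 26.7 ± 2.40 to 37.1 ± 1.83 CPM (edgeR adjusted p = 0.0367). With WT replicate 1 or 2 or KO replicate 3 of VAT left out, the Vegfa call was made and the Ccnd1 call was not, and with any other VAT library left out neither was. Between depots, 7 of the 28 were higher and 9 lower in VAT in WT, and likewise 7 and 9 in KO. Over all tested genes 19.1% were called higher and 17.6% lower in WT, and 23.3% and 20.0% in KO. Mmp3, the gene of a stromelysin, fell from 604 ± 124 CPM in WT SAT to 19.0 ± 9.44 in WT VAT (log2 fold change -4.99 ± 0.36, edgeR adjusted p = 7.92e-09).

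Other groups of genes changed in the same comparisons. Over all tested genes, 2.43% were called lower and 3.46% higher in KO SAT, and 1.26% lower and 2.84% higher in KO VAT. Of 16 heat shock and dissociation stress genes, 7 fell in KO SAT (median log2 fold change -0.31) and 3 in KO VAT, and 0 rose. Their summed level in SAT was 6487 to 7554 CPM with WT and 5237 to 6113 CPM with KO. In VAT the ranges were 5021 to 5558 CPM and 4401 to 5107 CPM, which overlap. Hspa1b, a heat shock chaperone gene whose reads may be shared with its near copy Hspa1a, fell from 660 ± 55.4 to 405 ± 14.8 CPM in SAT (edgeR adjusted p = 0.000119). The 20 genes of G2/M and mitosis all rose in KO in both depots. Summed, they stood at 60.4 to 91.2 CPM with WT and 176 to 240 CPM with KO in SAT, and at 76.6 to 93.9 CPM and 236 to 283 CPM in VAT. Summed lymphocyte markers in SAT stood at 14.6 to 17.9 CPM with WT and 25.2 to 43.1 CPM with KO. In VAT the ranges were 14.4 to 58.3 CPM and 55.2 to 155 CPM, which overlap. Of 8 tested lymphocyte markers 1 was called higher in each depot. That count was 0 in SAT when any WT library or KO replicate 2 or 4 was left out, and 0 in VAT without WT replicate 4. Summed Schwann cell markers in SAT were at 474 to 864 CPM with WT and 423 to 570 CPM with KO, which overlap. Of 12 pericyte and smooth muscle markers 2 fell in KO SAT, with summed levels of 2898 to 4847 CPM in WT and 2309 to 3207 CPM in KO. Leaving out WT replicate 3, or replicate 2 or 4 of KO, took that count to 0. It was 1 when replicate 1 or 2 of WT, or replicate 3 of KO, was left out, and 4 when replicate 4 of WT was. The part of stress during cell isolation, of cell cycling or of these cell types in the AP-1 values was not tested.

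Several members share exons with a gene on the other strand, and the library kit does not mark strand, so reads from the shared bases cannot be told apart. Fosl1 shares 1163 exon bases with Ccdc85b, whose counts of 805 to 1705 per library exceeded the counts of Fosl1, 116 to 269. Fosl1 values are therefore uncertain, and Ccdc85b itself had log2 fold changes of -0.68 ± 0.20 in KO SAT (edgeR adjusted p = 0.0560) and 0.46 ± 0.20 between depots in KO (edgeR adjusted p = 0.0755). Junb shares 173 exon bases with Prdx2 (4082 to 5735 counts), which had log2 fold changes of -0.11 ± 0.13 in KO SAT and 0.09 ± 0.13 in KO VAT. Mafk shares 169 exon bases with Tmem184a (4 to 116 counts). Between depots Tmem184a had log2 fold changes of 2.67 ± 0.36 in WT (edgeR adjusted p = 1.52e-05) and 2.04 ± 0.36 in KO (edgeR adjusted p = 0.000195), the direction of Mafk, whose own counts were 2746 to 7627 per library. Jun shares 232 with the antisense gene Junos. Jund shares 877 of its 1668 exon bases with Gm11175, which had 0 counts in every library. The sources used here do not say how reads on shared bases were counted. The per-kilobase level of Jund, its place in the order and the Fos and Jun shares are therefore uncertain as well.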

How the data were processed

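The authors deposited a table of raw counts, whole numbers of reads per gene symbol and library, and all tests started from these counts. Per the labels, RNA came from the RNeasy Micro kit and libraries from the NEBNext Ultra RNA kit, read as single reads on a NextSeq instrument, and column names carry the word MACS with no marker given. Per the submitters' processing notes, FastQC, STAR, featureCounts and DESeq were used with build mm10. For versions, annotation and strand setting, nothing is given in the sources used here. A deposited table of normalised values was not used.

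Counts of the 16 libraries were fitted in 1 model with edgeR 4.0.16 (R 4.3.3), with filterByExpr, TMM scaling, a coefficient per group and 12 residual degrees of freedom. Adjusted p is Benjamini-Hochberg over 16842 genes. SE is the size of the log2 fold change over the square root of F. Alternatives used DESeq2 1.42.0, limma 3.58.1 (voom), other scalings, no filter, a replicate block, only the groups compared, and each library left out. Member correlations were permuted 100000 times within groups, a test added after the data were seen. Total counts of 34655519 to 55551845 put Fosl1, the lowest member, at no fewer than 116 counts per library, where counting error is a larger part of the spread than in the other members. The fitting steps were tested on simulated data.

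Members, gene lists and tests were chosen with earlier results of these data known. Named list genes were the 2 with the smallest p among called members of each list, besides any said to be named after their values were seen. Exons and positions came from GENCODE vM21 (GRCm38, the assembly of mm10), and promoter sequences from RefSeq, GRCm38.p6. Protein sequences were not used here. Some of the genes ranked as most like the family are not reported here.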

Additional observations from a re-analysis of the deposited data

Results flagged for a closer look

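Of 40 groups of 4 libraries, 1 held a library far from the others by Dixon's test at its 95% critical value, and chance flags about 1 in 20 such groups. It was Jun in WT VAT, where replicate 3 stood at 2983 CPM above the other 3 libraries, which lay between 2877 and 2894 CPM.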

How the results depend on the processing

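Called members numbered 3 in KO against WT in SAT, beside 992 of all 16842 tested genes. The count was 1 when only the compared groups were fitted, beside 509 of 15474 genes. It was 5 without WT SAT replicate 3 and KO VAT replicate 4, beside 1263 of 16991 genes. In VAT the 3 called became 1 under scaling by total counts, 0 without the filter on low counts, 5 with DESeq2, 1 with a replicate block, and 0 to 1 when a library was left out. Over all genes the 690 called in VAT became 729, 590, 1238 and 611 in the first 4 of these settings. With a library left out they became 412 to 625. For VAT against SAT in WT the 4 called became 7 under scaling by total counts. Over all 16842 tested genes the calls there went from 6187 to 9176, of which 85.6% were higher in VAT. That scaling turned the sign of Jun in WT (0.13, adjusted p = 0.174), Junb in WT (0.26, 0.00524), Fos in KO (0.20, 0.0280) and Jun in KO (0.050, 0.601) between depots. Log2 values of uncalled members also crossed 0 when a library was left out, with ranges of -0.10 to 0.0062 for Fos in KO SAT, -0.16 to 0.039 for Fosl2 in KO VAT, -0.11 to 0.0039 for Junb between depots in WT and -0.0080 to 0.12 for Atf3 between depots in KO. For the interaction these ranges were -0.031 to 0.13 for Fosb and -0.060 to 0.15 for Jund. Without WT SAT replicate 3 and KO VAT replicate 4, Fosl2 in KO VAT was at 0.039, Junb between depots in WT at 0.0045 and the Jund interaction at -0.099. Dividing by the longest transcript gave per-kilobase means of 2335 for Fos, 974 for Junb, 764 for Fosb, 87.7 for Fosl2 and 40.1 for Mafk, since that transcript is shorter than all exons together. The 5 genes most like the family by r and by rho shared 2. The cause of the other changes was not tested. Same-numbered replicates were not paired (correlations of their deviations from -0.16 to 0.18, over 0.1 for 3 of the 4 numbers between depots in WT, own number not always the best), and under the replicate block Jund lost its call in SAT (adjusted p = 0.0623), Junb (0.0789) and Atf3 (0.0730) in VAT, and Atf3 (0.0763) between depots in WT. Over all genes, DESeq2 called 1691 in SAT and 1238 in VAT against 992 and 690, and 527 against 45 for the interaction. DESeq2 called 11 heat shock genes in SAT and 7 in VAT against 7 and 3. The replicate block called 0 of the kinase genes in SAT against 3.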
